A study of Mus musculus with 16 samples.

Results

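The lysyl oxidases and the enzymes that trim procollagen were followed in tail tendon fascicles of mice with and without the gene Vhl. The group holds 10 genes of the 25719 listed in each library and was taken by name: the 5 lysyl oxidases Lox, Loxl1, Loxl2, Loxl3 and Loxl4, the procollagen C-proteinase Bmp1 and its enhancers Pcolce and Pcolce2, and the N-proteinases Adamts2 and Adamts14. RNA was sequenced from 16 libraries of fascicles, the collagen-rich strands of the tail, 8 labelled wild type and 8 labelled knockout. The knockout is ScxCre;Vhlf/f, where Cre recombinase under the tendon gene Scx removes floxed Vhl sequence wherever Scx is or was active. The labels give no age, further allele or treatment for either group, and all cells of the tissue entered each library, so cells without Scx activity kept Vhl. The labels do not say whether the libraries of a group came from separate animals, so p-values measure the spread between these libraries. The tissue is bulk, and fewer cells of a type cannot be told apart from less RNA per cell.

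Fibrillar collagen leaves the cell as procollagen with a propeptide at each end. BMP1 removes the C-propeptide, an enzyme step that PCOLCE and PCOLCE2 speed up by binding the substrate, and ADAMTS2, ADAMTS3 and ADAMTS14 remove the N-propeptide, after which the molecules assemble into fibrils. Lysyl oxidases are copper enzymes that oxidise lysine and hydroxylysine side chains of collagen and elastin, the first step of the covalent cross-links that give tendon its strength. VHL marks hydroxylated HIF1α for degradation, and LOX and LOXL2 are known as targets of HIF1α in hypoxic tumour cells.

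Each library held between 10488355 and 18753254 counts. Vhl was lower in every knockout library (7.51 to 10.9 CPM, counts per 1000000 after scaling by the trimmed mean of M-values, TMM) than in every wild type library (14.1 to 25.8 CPM), so each library followed its label. Wild type library 3 stood apart, with 12% of its counts in the type I collagen genes Col1a1 and Col1a2 against 19.7% to 29.2% in the other wild type libraries and 7.70% to 18.4% in the knockout. Scx was high, at 479 CPM or more, in wild type library 8 and in knockout libraries 5, 6 and 8. The gene Bop1 was high in the same libraries. It stood at 109 CPM in wild type library 8 and at most 35.4 CPM in the other wild type libraries. In knockout libraries 5, 6 and 8 it was at 459 CPM or more, and in the others at most 84 CPM. Why both genes were high there was not tested. Skeletal muscle markers varied widely in both groups, with a summed level of 49.2 to 3551 CPM in wild type libraries and 119 to 7194 CPM in knockout libraries. Tendon markers were present in all libraries, and 5 of 8 fell and 1 (Tnc) rose in the knockout.

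Most of the 10 genes were lower in the knockout. All 10 passed the filter on low counts, with at least 57 counts in every library. By edgeR's quasi-likelihood test with Benjamini-Hochberg adjustment over 14803 tested genes, 7 fell and 1 rose, where 22.7% of all tested genes fell and 25.6% rose (48.3% in either direction). Adamts2 fell most, Loxl4, Bmp1, Lox, Pcolce2, Loxl3 and Pcolce fell less, Loxl1 rose, and Loxl2 and Adamts14 did not pass the threshold, an adjusted p under 0.05. The median log2 fold change of the 10 genes was -0.39, and that of all tested genes was 0.02. Loxl1, Loxl4, Bmp1 and Adamts2 stayed past the threshold in each of the 28 alternative fits. The scale matters for the others: with total counts in place of TMM the median over the 14803 genes rose to 0.32 and the count was 3 lower and 2 higher, where 9.56% of all tested genes were called lower and 55.9% higher.

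**Figure D1:**
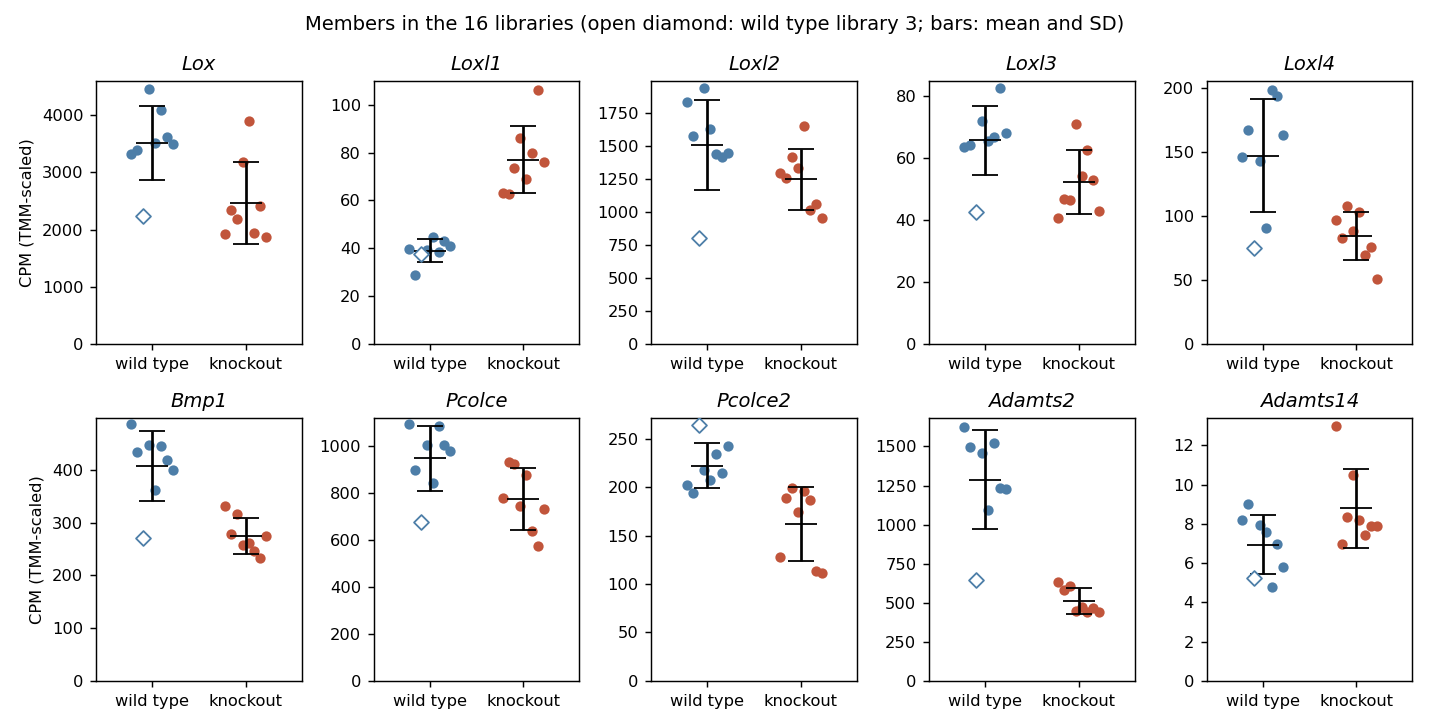
Level of each of the 10 genes in CPM (TMM-scaled, axes from 0) in 8 wild type (blue) and 8 knockout (red) libraries, with the mean and SD of each group as bars and wild type library 3 as an open diamond. Adamts2 and Loxl1 show no overlap between the groups, and wild type library 3 was the lowest wild type library for 7 of the 10 genes and the highest for Pcolce2.

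Lox (ENSMUSG00000024529, chromosome 18), the founding member of the family and the main cross-linking enzyme of fibrillar collagen, was by far the most abundant of the lysyl oxidases. Per kilobase of exon it stood at 735 ± 135 CPM in wild type libraries and 516 ± 149 CPM in knockout libraries (SD, n = 8). In CPM, wild type libraries had a lowest, median and highest level of 2233, 3500.0 and 4454, and knockout libraries 1864, 2262 and 3892. The groups overlapped: wild type library 3 was below 4 knockout libraries, while knockout library 5 alone reached the level of the other wild type libraries, all at 3310.1 CPM or more. Lox fell by 0.51 on the log2 scale (SE 0.160, adjusted p = 0.0125). The call was lost with total counts, where the value was -0.20 (adjusted p = 0.237), and without the 6 libraries highest in muscle markers, 3 of each genotype, where it was -0.29 (adjusted p = 0.296).

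Loxl2 (ENSMUSG00000034205, chromosome 14), which carries scavenger receptor domains and also cross-links basement membrane collagen, came next. Its level was 280.0 ± 63.3 CPM per kilobase in wild type libraries and 232 ± 42.9 in knockout libraries (SD, n = 8). Wild type libraries ran from 808 CPM through a median of 1515 to 1939.6, and knockout libraries from 959 through 1282 to 1654. Knockout libraries sat inside the wild type range, whose lowest value was library 3. The log2 difference of -0.27 missed the threshold (SE 0.148, adjusted p = 0.137), with a 95% interval from -0.56 to 0.02. Without wild type library 3 it passed, at -0.37 (adjusted p = 0.0112), and with total counts its sign changed, to 0.04. Neither Lox nor Loxl2 was thus called higher in the knockout in any fit.

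Loxl1 (ENSMUSG00000032334, chromosome 9), which acts in elastic fibre assembly, was the 1 gene of the 10 that rose. Wild type libraries had 28.9, 39.5 and 44.9 CPM as the lowest, median and highest value, and knockout libraries 62.7, 74.9 and 106. Every knockout library was above every wild type library, which held for 10.8% of all tested genes (19.4% in either direction). The difference on the log2 scale was 0.98 (SE 0.104, adjusted p = 1.89e-07), close to a doubling from 39.1 ± 4.77 to 77.1 ± 14.2 CPM (SD, n = 8). It lay between 0.88 and 1.28 over the alternatives. Even so Loxl1 remained a small part of the family, with 1.14% ± 0.286 of the summed lysyl oxidase level per kilobase in wild type libraries and 3.04% ± 0.809 in knockout libraries.

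Loxl4 (ENSMUSG00000025185, chromosome 19), another family member with scavenger receptor domains, showed the largest fall among the lysyl oxidases. Its level had a lowest, median and highest value of 75.4, 154 and 198 CPM in wild type libraries and 50.9, 85.5 and 108 CPM in knockout libraries. The overlap came from wild type libraries 3 and 5, at 75.4 and 90.8 CPM, while the other 6 lay at 143 CPM or more. The difference on the log2 scale was -0.80 (SE 0.194, adjusted p = 0.00252), and it was smallest, at -0.48, with total counts.

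Loxl3 (ENSMUSG00000000693, chromosome 6), the remaining family member with scavenger receptor domains, had the smallest called fall of the family. Wild type libraries lay between 42.7 and 82.6 CPM and knockout libraries between 40.6 and 70.9 CPM. The fall of 0.33 on the log2 scale was near the threshold (SE 0.123, adjusted p = 0.0328), and the call was lost when any of 7 single libraries was left out, 3 wild type (4, 7 and 8) and 4 knockout (1, 2, 3 and 8), with adjusted p-values of 0.0505 to 0.0695. With total counts the value was -0.01 (adjusted p = 0.927). Without the 4 libraries high in Scx it was -0.35 (adjusted p = 0.0872), and without the 6 highest in muscle markers -0.24 (adjusted p = 0.254). Its exons share 535 bases with Htra2 on the other strand, and since the strand setting of the counting is not given in the sources used here, its counts are uncertain. Htra2 itself differed by -0.22 (adjusted p = 0.0146).

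Within the family the order by level per kilobase was Lox, Loxl2, Loxl4, Loxl3 and Loxl1 in the wild type. The ranges of Loxl3 (9.27 to 17.9 CPM per kilobase) and Loxl1 (8.76 to 13.6) overlapped there, and that of Loxl4 (17.9 to 47.1) met that of Loxl3 at its lower end. In the knockout Loxl1, at 23.4 ± 4.3 CPM per kilobase, lay above Loxl3, at 11.3 ± 2.24, with no overlap (19 to 32.2 against 8.81 to 15.4), and its range overlapped that of Loxl4 (12.1 to 25.5). Lox took 68.4% ± 2.61 of the family's summed level per kilobase in wild type libraries and 63.7% ± 4.05 in knockout libraries, and Loxl2 took 25.9% ± 2.92 and 29.2% ± 3.57 (SD, n = 8), each with overlap between the groups.

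The C-proteinase Bmp1 (ENSMUSG00000022098, chromosome 14), which also activates the LOX precursor, fell. Its level was 271, 426 and 486 CPM (lowest, median, highest) in wild type libraries and 233, 268 and 332 CPM in knockout libraries. Wild type library 3, at 271 CPM, was the only wild type library within the knockout range, and without it the groups did not overlap, which brought the genes without overlap to 3 of the 10 (20.9% of all tested genes). The difference on the log2 scale was -0.57 (SE 0.105, adjusted p = 0.000156), and -0.25 with total counts (adjusted p = 0.0129). The counts do not separate the short form of the gene from the longer tolloid form.

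Both C-proteinase enhancers were lower by the main test. Pcolce (ENSMUSG00000029718, chromosome 5) ran from 673 through 990.4 to 1092 CPM in wild type libraries and from 572 through 759 to 929 CPM in knockout libraries, with wide overlap. Its fall of 0.29 on the log2 scale was at the threshold (SE 0.115, adjusted p = 0.0416). The call was lost once the muscle score entered the fit, at -0.19 (adjusted p = 0.166), with total counts, at 0.02, and when any of 10 single libraries was left out: wild type 1, 4, 6, 7 or 8 or knockout 1, 4, 6, 7 or 8, with adjusted p-values of 0.0547 to 0.0842. It was also lost without the 4 libraries high in Scx, at -0.26 (adjusted p = 0.156), and without the 6 highest in muscle markers, at -0.15 (adjusted p = 0.407). Of its exons 112 bases overlap Fbxo24, which was measured at no more than 3.81 CPM in any library.

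Pcolce2 (ENSMUSG00000015354, chromosome 9) had 194, 217 and 264 CPM as the lowest, median and highest wild type level and 111, 180.3 and 199 CPM in the knockout. Knockout libraries 1, 7 and 8 were lowest, between 111 and 128 CPM, and the other 5 lay between 174 and 199 CPM. The overlap was narrow, with knockout libraries 3 and 5 above wild type library 2 and below the other wild type libraries. The difference on the log2 scale was -0.45 (SE 0.126, adjusted p = 0.00561), and -0.16 with total counts (adjusted p = 0.311). Wild type library 3, low for most of the other genes, held the highest Pcolce2 level. Pcolce made up 83.5% ± 3.43 of the summed enhancer level per kilobase in wild type libraries and 85.2% ± 2.58 in knockout libraries (SD, n = 8).

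Of the N-proteinases among the 10 genes, Adamts2 fell and Adamts14 did not pass the threshold. Adamts2 (ENSMUSG00000036545, chromosome 11), the main enzyme that removes the N-propeptide of type I procollagen, had 643, 1344 and 1624 CPM as the lowest, median and highest wild type level and 443, 469 and 633 CPM in the knockout. All 8 knockout libraries lay below all 8 wild type libraries, by a narrow margin at wild type library 3 and by a wide one at the others, the next of which held 1093 CPM. Such a separation on the lower side held for 8.61% of all tested genes. The difference on the log2 scale was -1.33 (SE 0.153, adjusted p = 5.66e-07), so that the knockout was at 39.8% of the wild type, and Adamts2 was the 1 gene of the 10 with a called fall of at least 2-fold (4.91% of all tested genes). The log2 difference lay between -1.44 and -1.0 over the alternatives.

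Adamts14 (ENSMUSG00000059901, chromosome 10), which acts on the same propeptide, was scarce, with 57 to 166 counts in a library. Wild type libraries had 4.81, 7.28 and 9.0 CPM as the lowest, median and highest level and knockout libraries 6.97, 8.06 and 13. The log2 difference of 0.34 missed the threshold (SE 0.149, adjusted p = 0.0688). Among other fits it passed with total counts, at 0.65 (adjusted p = 0.000702), and without wild type library 2 or knockout library 2, at 0.40 and 0.38 (adjusted p = 0.0372 and 0.0490).

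Adamts3, a further N-proteinase, is not one of the 10 genes and was on the list of related proteinases. It fell from 89.8 ± 14.9 to 40.2 ± 7.79 CPM (SD, n = 8), a log2 difference of -1.16 (SE 0.125, adjusted p = 3.23e-07), and all knockout libraries were below all wild type libraries. Of the 3 N-proteinases per kilobase, Adamts2 took 88.2% ± 1.70 of the sum in wild type libraries and 85.7% ± 2.35 in knockout libraries. Adamts14 took 0.891% ± 0.222 of it in wild type libraries and 2.66% ± 0.493 in knockout libraries.

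**Figure D2:**
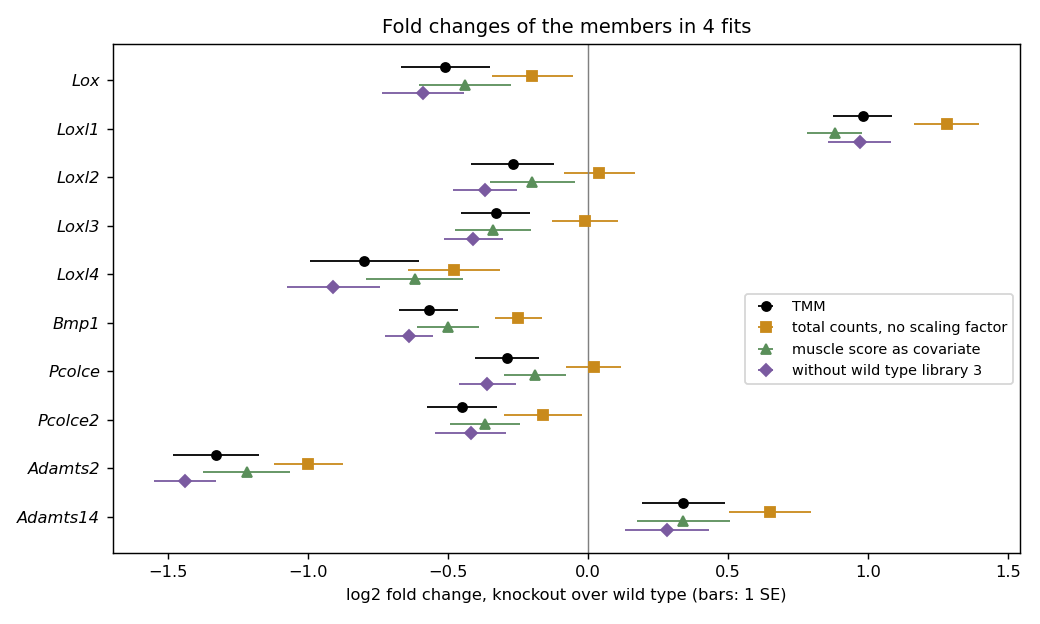
Log2 fold change (knockout over wild type) of each gene with bars of 1 SE in 4 fits: TMM scaling, total counts without a scaling factor, the muscle marker score as a covariate, and TMM without wild type library 3. Total counts moved each gene to the right by about the shift of all genes, and Adamts2 and Loxl1 lay farthest from 0 in each of the 4 fits.

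Sequences before the start site were at hand for 5 of the 10 genes, Loxl4, Pcolce, Pcolce2, Adamts2 and Adamts14, from RefSeq on GRCm38.p6, and were not for Lox, Loxl1, Loxl2, Loxl3 and Bmp1. They were searched for the core of the hypoxia response element, ACGTG or GCGTG on either strand, because HIF1α binds this element and Vhl is the deleted gene. Of 32851 windows of the 250 bases before a start site, 38.6% held at least 1 match. Loxl4, Pcolce and Adamts14 each held 1 GCGTG, at 162, 40 and 132 bases before the start site, and the windows of Adamts2 and Pcolce2 held none of these letters. The windows of the gene that fell most, of the lysyl oxidase that fell most and of the scarce N-proteinase are shown 5′ to 3′ on the gene's strand, with the match in capitals (CACGC is GCGTG read on the other strand).
Adamts2 (GRCm38.p6, chr11:50601835-50602084, + strand): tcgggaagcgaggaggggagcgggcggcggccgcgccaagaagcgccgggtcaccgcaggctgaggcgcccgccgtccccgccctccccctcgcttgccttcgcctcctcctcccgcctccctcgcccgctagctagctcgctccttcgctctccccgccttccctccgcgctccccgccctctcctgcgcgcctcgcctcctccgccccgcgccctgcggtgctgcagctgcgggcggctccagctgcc
Loxl4 (GRCm38.p6, chr19:42612807-42613056, - strand): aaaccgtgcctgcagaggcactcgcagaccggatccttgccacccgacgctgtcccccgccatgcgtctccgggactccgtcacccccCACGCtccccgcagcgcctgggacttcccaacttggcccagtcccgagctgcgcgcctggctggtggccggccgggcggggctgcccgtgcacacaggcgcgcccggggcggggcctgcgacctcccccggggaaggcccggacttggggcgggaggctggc
Adamts14 (GRCm38.p6, chr10:61273420-61273669, - strand): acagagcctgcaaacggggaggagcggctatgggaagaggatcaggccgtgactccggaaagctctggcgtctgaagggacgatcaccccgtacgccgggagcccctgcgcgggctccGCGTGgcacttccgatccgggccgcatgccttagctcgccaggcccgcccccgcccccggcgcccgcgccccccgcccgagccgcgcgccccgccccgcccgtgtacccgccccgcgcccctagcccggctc
All 3 windows are rich in G and C, at 78.0%, 76.0% and 76.4% against a median of 52.4% over all windows. A match describes the letters and does not show a bound site.

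Type I collagen, 1 of the substrates of these enzymes, fell as well, while 5 other fibrillar collagen chains rose. Col1a1 and Col1a2 fell by 0.95 and 1.44 on the log2 scale (SE 0.225 and 0.199, adjusted p = 0.00170 and 6.01e-06). Each of the 10 genes was therefore set against summed type I collagen, both in log2 CPM, within each genotype, which gave 20 relations. In the wild type, Adamts2 followed type I collagen closely (Pearson r = 0.996, exact permutation p = 2.48e-05, the smallest these permutations can give, adjusted p = 0.000496; Spearman rho = 1.0, exact permutation p = 4.96e-05, adjusted p = 0.000992; n = 8). So did Bmp1 (r = 0.996, exact permutation p = 9.92e-05, adjusted p = 0.000992; rho = 0.929, exact permutation p = 0.00223, adjusted p = 0.0223; n = 8). Without wild type libraries 3 and 5, the farthest from the median collagen level, r was 0.963 for Adamts2 (exact permutation p = 0.00139, n = 6) and 0.97 for Bmp1 (exact permutation p = 0.00556, n = 6).

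Among 14801 tested genes other than Col1a1 and Col1a2, Adamts2 ranked 1 and Bmp1 ranked 2 by r with type I collagen in the wild type, a ranking chosen after the values were seen. Without wild type library 3 Adamts2 ranked 5 and Bmp1 ranked 4. By r in the knockout Adamts2 ranked 859 and Bmp1 ranked 602. Type I collagen is a large part of each library and shares its scaling with every gene, and the median r over all tested genes was -0.01. In the knockout r was 0.728 for Adamts2 (exact permutation p = 0.0145, adjusted p = 0.0640; rho = 0.810, exact permutation p = 0.0218, adjusted p = 0.109; n = 8) and 0.767 for Bmp1 (exact permutation p = 0.0217, adjusted p = 0.0723; rho = 0.619, exact permutation p = 0.115, adjusted p = 0.293; n = 8). Without knockout libraries 1 and 6 the exact permutation p-values were 0.107 and 0.147 (n = 6). Whether the relation differs between the genotypes was not tested.

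For the other 8 genes the relation was weaker or was lost without wild type libraries 3 and 5. Pcolce reached r = 0.935 in the wild type (exact permutation p = 0.00365, adjusted p = 0.0243; rho = 0.833, exact permutation p = 0.0154, adjusted p = 0.103; n = 8), but without libraries 3 and 5 r was 0.52 (exact permutation p = 0.303, n = 6). Lox had r = 0.809 in the wild type (exact permutation p = 0.0473, adjusted p = 0.117, n = 8) and 0.034 without the same libraries, and -0.024 in the knockout. Pcolce2 had a negative r in the wild type, -0.688 (exact permutation p = 0.0527, adjusted p = 0.117, n = 8).

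**Figure D3:**
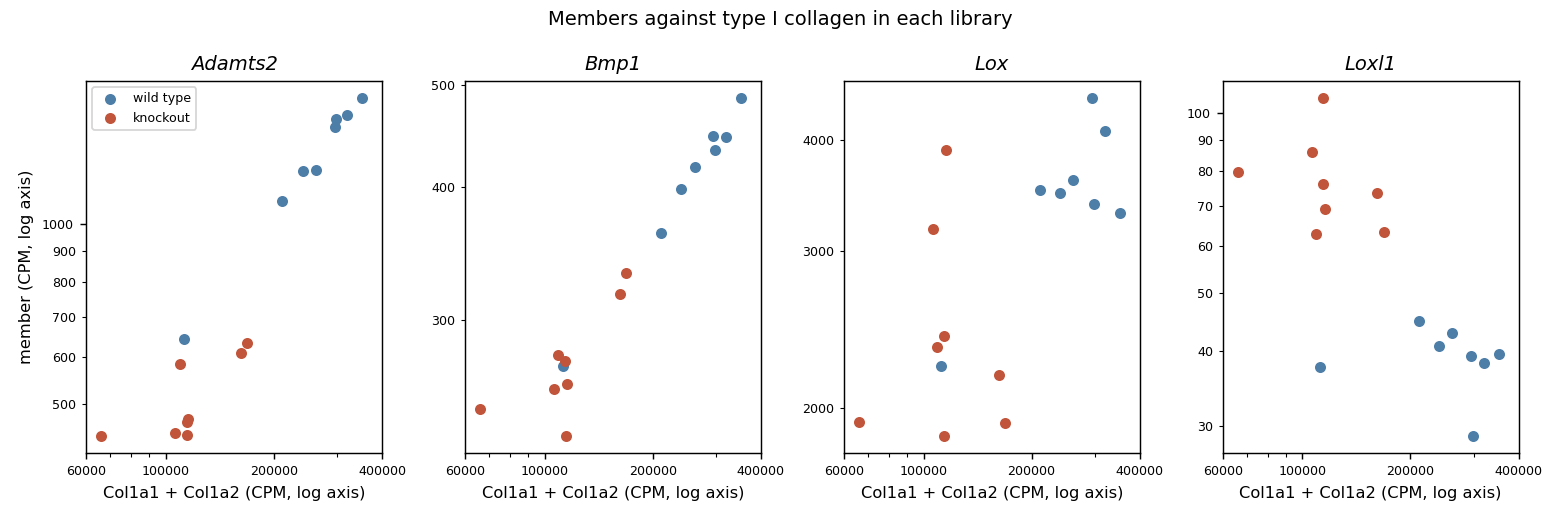
CPM of Adamts2, Bmp1, Lox and Loxl1 (vertical, log axis) against summed Col1a1 and Col1a2 CPM (horizontal, log axis) in 8 wild type (blue) and 8 knockout (red) libraries, 1 point per library. Adamts2 and Bmp1 lie on a narrow band in the wild type (r = 0.996 for each), wild type library 3 falls among the knockout libraries for Bmp1, and every knockout library is above every wild type library for Loxl1.

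The ratio of a gene to type I collagen within a library does not depend on library scaling. Adamts2 gave between 4.60 and 5.73 counts per 1000 type I collagen counts in the wild type, with a median of 4.98. The SD of this ratio was 0.0998 on the log2 scale, the lowest of the 14801 genes, whose median was 0.562. Without library 3 it ranked 3. This ranking uses the same libraries and genes as the ranking by r, and was likewise chosen after the values were seen. For the knockout libraries the SD was 0.295, rank 564 from the lowest, and the median over the genes was 0.468. In the knockout the ratio ran from 3.76 to 6.72, with a median of 4.09. The mean log2 difference was -0.18, with overlap between the groups, the smallest difference of the 10 genes.

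For the other 9 genes the mean ratio was higher in the knockout. The median log2 difference of the ratio was 0.70 over the 10 genes and 1.13 over all tested genes. For 2 genes the ranges were separate, both higher in the knockout, as for 12.2% of all tested genes (0.75% lower, 12.9% in either direction). Loxl1 had 0.0971 to 0.336 counts per 1000 in wild type libraries and 0.376 to 1.21 in knockout libraries, a log2 difference of 2.08. Adamts14 had 0.0151 to 0.0469 in wild type libraries and 0.052 to 0.113 in knockout libraries, a difference of 1.45.

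For the more abundant enzymes the ratios overlapped. Lox had a lowest, median and highest ratio of 9.38, 14.2 and 19.9 counts per 1000 in wild type libraries and 11.5, 21.3 and 33.7 in knockout libraries, a log2 difference of 0.58. Loxl2 had 4.50, 5.72 and 7.74 and then 7.72, 10.4 and 15.5, a difference of 0.85 with an overlap of 1 library from each group. Bmp1 differed by 0.55, Pcolce by 0.81, Pcolce2 by 0.62, Loxl3 by 0.77 and Loxl4 by 0.34.

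**Figure D4:**
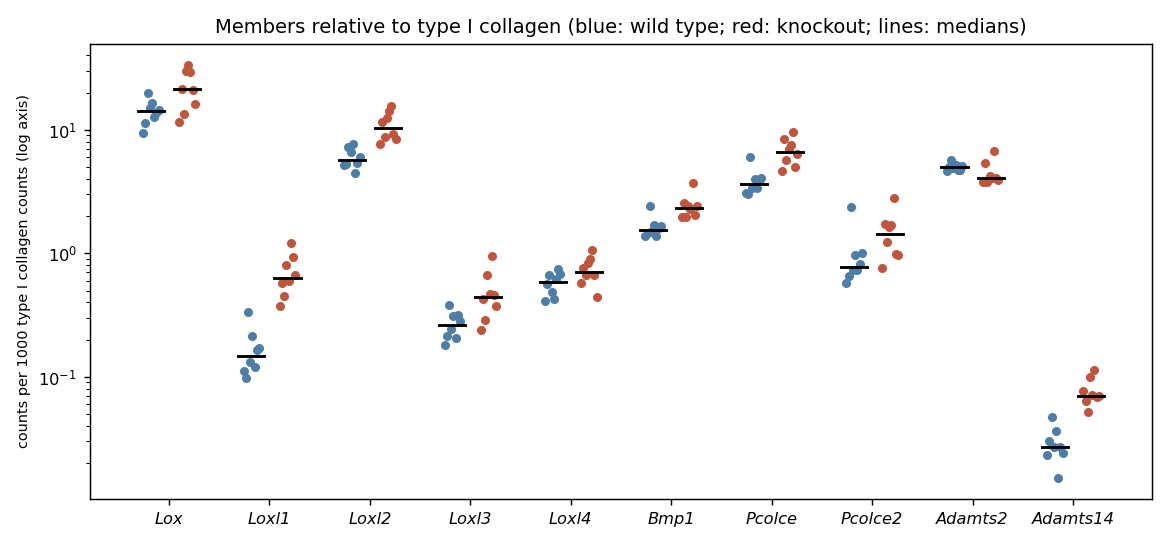
Counts of each gene per 1000 counts of Col1a1 and Col1a2 (log axis) in 8 wild type (blue) and 8 knockout (red) libraries, with the median of each group as a line. Adamts2 has the narrowest spread in the wild type (4.60 to 5.73) and a median of 4.09 in the knockout, and Loxl1 and Adamts14 are higher in every knockout library.

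The genes whose levels ran most like those of a member were taken as those with the highest value of the lower of the within-genotype Pearson correlations, over 14617 genes and 8 libraries of each genotype. For Adamts2 they were Plod1 (0.95 in the wild type, 0.97 in the knockout), Adcy7 (0.91, 0.94) and P3h3 (0.98, 0.89). For Lox the first were Ddb1 (0.92, 0.89) and Ncbp3 (0.88, 0.89). For Loxl2 the first was Gorasp2 (0.96, 0.94), for Loxl1 Asb8 (0.92, 0.78), for Loxl3 Ccdc80 (0.93, 0.94), for Loxl4 Chac1 (0.86, 0.87), for Bmp1 Fgfr2 (0.88, 0.90), for Pcolce Grhpr (0.89, 0.93), for Pcolce2 Nkain4 (0.95, 0.93) and for Adamts14 Rhno1 (0.87, 0.94). These points share library, depth and muscle content. Each named gene was picked as among the highest of 14617 on 8 libraries per genotype, and the level that such picking alone would reach was not computed.

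The other genes of collagen synthesis and cross-linking moved in both directions. Of 48 genes on 4 lists, 45 were tested, 18 rose and 13 fell, beside 25.6% and 22.7% of all tested genes, and the median log2 fold change was 0.03. Among the related proteinases, Adamts3 and Tll1 fell, Furin, which activates BMP1 and the ADAMTS enzymes, differed by 0.03 without passing the threshold, and Tll2, Mep1a and Mep1b were not tested. Tll1, a tolloid proteinase related to BMP1, went from 11 ± 1.78 to 5.50 ± 2.50 CPM, a log2 difference of -1.01 (SE 0.220, adjusted p = 0.000872).

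Of 11 fibrillar collagen chains 5 rose and 3 fell. Besides the type I chains the fall included Col11a2, by 3.03 on the log2 scale, while Col3a1 rose by 1.89, from 1539 ± 302 to 5716 ± 666 CPM (SD, n = 8), and Col24a1 by 1.67. Of 18 genes of hydroxylation, glycosylation and folding 8 rose and 4 fell. The largest increases were P4ha2, a prolyl hydroxylase subunit (4.29), and Plod2, the lysyl hydroxylase that acts on the telopeptide lysines used in cross-links (3.57), and the largest decreases P3h2 (-1.11) and Fkbp14 (-1.0).

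Of 13 partners, copper handlers and other substrates 5 rose and 4 fell. Postn, a matrix protein that binds BMP1, rose by 5.04 (SE 0.863, adjusted p = 0.000194) over a wide spread, with 2.42 to 76.7 CPM in wild type libraries and 178 to 1755 CPM in knockout libraries. Within each genotype its highest levels were in the libraries highest in muscle markers. Fn1, the fibronectin gene, rose by 1.57. Fmod, which binds collagen and LOX, fell by 1.29, from 15908 ± 2793 to 6522 ± 805 CPM (SD, n = 8), and Fbln5, an elastic fibre protein, fell by 0.63. Of the copper handlers, Atp7a, the pump of the secretory pathway, differed by 0.19 and Atox1 and Slc31a1 by -0.14 and -0.21, of which Atp7a alone passed the threshold.

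**Figure D5:**
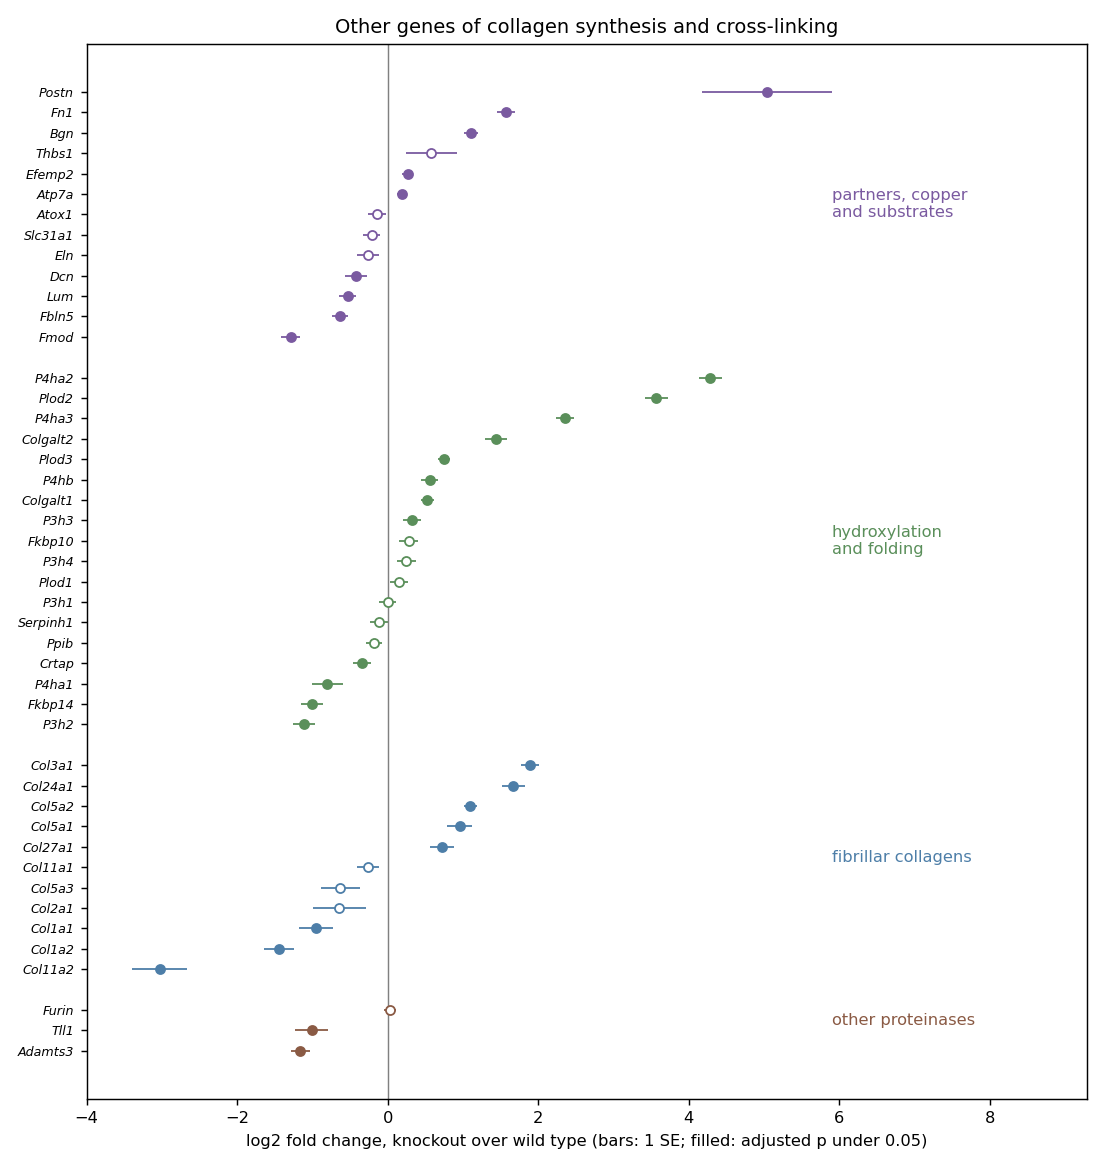
Log2 fold change (knockout over wild type, bars of 1 SE) of 45 tested genes of collagen synthesis and cross-linking outside the 10 genes, by list, with filled points for an adjusted p under 0.05. Each list with more than 3 tested genes holds both higher and lower genes, from Col11a2 at -3.03 to Postn at 5.04.

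Markers of other cells moved with genotype. Of 8 endothelial markers 6 were tested and 5 rose, with a summed level of 31.6 to 53.0 CPM in wild type libraries and 54.2 to 450.0 CPM in knockout libraries and Cldn5 at 0 in 5 wild type libraries. Of 6 mural markers 4 rose and 1 fell (Cspg4, -0.27), and the sum was 208 to 283 CPM against 236 to 1311 CPM. In the wild type these sums were mainly Tek and Eng (means of 22.7 and 12.6 CPM) and Cspg4 (217 CPM). The endothelial markers that rose did so by 1.52 (Eng) to 6.11 (Pecam1) on the log2 scale. The mural ones rose by 3.83 (Myh11) to 6.11 (Rgs5). Tek and Acta2 did not pass the threshold (-0.08 and 0.66). Within the knockout each endothelial marker, and each mural marker but Cspg4, was highest in libraries 6, 7 and 8, those highest in muscle markers. In the wild type Rgs5, Mcam and Cldn5 were highest in libraries 4, 5 and 7, those highest in muscle markers. Pecam1, Cdh5, Kdr, Egfl7 and Emcn were highest in library 5, at no more than 5.86 CPM, and Myh11 in library 4, at 1.74 CPM. For these genes libraries 4, 5 and 7 did not all lie above the other wild type libraries. Tek, Eng, Acta2, Cspg4 and Notch3 were highest in other libraries. All 5 erythroid markers rose, from a sum of 15.1 to 50.6 CPM to 77.2 to 559 CPM. Among macrophage markers 2 of 6 rose, with sums of 636 to 949 and 665 to 995 CPM, and keratinocyte genes summed to no more than 3.96 CPM, with Krt1 and Krt15 at 0 in every library. Of 10 muscle markers 1 rose, as did 1 of 5 tested Schwann cell markers. Of the adipocyte markers only Fabp4 was tested, and it rose, while the others reached at most 2.33 CPM in any library. Of 5 tested chondrocyte markers 3 rose (Acan, Sox9 and Comp), and Col2a1 differed by -0.64 without passing the threshold. The chondrocyte marker Matn3 fell by 4.02 on the log2 scale (adjusted p = 3.79e-11). The part of these cells in the changes of the 10 genes was not tested beyond the muscle score: with it as a covariate 1 gene rose and 6 fell (44.4% of all tested genes called), and without the 6 libraries highest in muscle 1 rose and 4 fell (Adamts2, Loxl4, Bmp1 and Pcolce2; 38.7% of all tested genes called).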

How the data were processed

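The deposited files give whole-number counts per Ensembl gene and library, headed as matched counts per the file headers. The submitters' processing notes name kallisto, featureCounts and GRCm39. Their roles, the annotation and the strand setting are not given in the sources used here. Symbols came from the supplied name table (25614 of 25719 identifiers), and exon lengths, exon overlaps and chromosomes from GENCODE M21 on GRCm38, so levels per kilobase are approximate.

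Counts were tested with edgeR 4.0.16 in R 4.3.3: TMM, default expression filter, robust quasi-likelihood F test, genotype as the only term, two-sided, Benjamini-Hochberg over 14803 genes. SE is the log2 fold change over the root of F. Log2 CPM used a prior count of 2 and ratios to collagen 0.5 added counts. On simulated data of 14747 genes, 191 of 200 genes changed 2-fold, as many up as down, were called (95.5%), and 4.98% of calls were unchanged genes. Far fewer genes were changed there than the 48.3% called in the data, and no fall of type I collagen was built in. The simulation therefore does not give the error rate under such a shift. The most similar pair of libraries within a group had a chi-square over its degrees of freedom of 6.56 (wild type) and 8.67 (knockout), so none was a repeat sequencing of another library. This check cannot tell whether libraries came from separate animals.

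The 10 genes and the lists were chosen with earlier results of these data known. Named from each list were the 2 largest and 2 smallest changes past the threshold, with Col1a1 and Col1a2; other genes were named after their values were seen. By the rule for similar levels the first gene is given for each of the 10, and more for Adamts2 and Lox. Counting error limits Adamts14 most. Alternatives were other scalings, filters, DESeq2 1.42.0, limma-voom (limma 3.58.1), a replicate block, muscle or Y-linked covariates and each library left out; those without the 4 libraries high in Scx or the 6 highest in muscle, and the overlap without wild type library 3, were added after seeing the data.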

Additional observations from a re-analysis of the deposited data

Results flagged for a closer look

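In groups of 8 libraries the lowest or highest was checked for a gap to its neighbour that takes most of the group's range. Of 40 checks on the 10 genes 10 met this, where chance gives about 1 in 20 checks, and the checks are not independent because library 3 and type I collagen enter many of them. Wild type library 3 was lowest in log2 CPM for Lox (11.12, next 11.69), Loxl2 (9.66, next 10.47), Loxl3 (5.42, next 5.99) and Adamts2 (9.33, next 10.09). The same library had the highest ratio to type I collagen, in counts per 1000, for Bmp1 (2.42, next 1.71), Pcolce (6.00, next 4.07) and Pcolce2 (2.36, next 1.01). Knockout library 6 had the highest knockout ratio for Bmp1 (3.74, next 2.54) and Pcolce2 (2.83, next 1.73). Wild type library 2 was lowest for Loxl1 (4.86 in log2 CPM, next 5.24).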

How the results depend on the processing

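With total counts, 5 of the 10 genes passed, 2 higher and 3 lower, beside 65.4% of all tested genes: Loxl2 and Pcolce changed sign (0.04 and 0.02), Lox, Loxl3 and Pcolce2 lost the call (-0.20, -0.01 and -0.16), and Adamts14 gained it (0.65). Relative to the median of all genes on that scale these 6 values were -0.28, -0.30, -0.52, -0.33, -0.48 and 0.33. On that scale 85.4% of all calls were higher, against 53.0% with TMM. The replicate numbers do not pair the libraries (correlations of same-numbered libraries from -0.627 to 0.472, none best with its own number). With the replicate block 2 genes were higher, Pcolce lost the call (-0.30) and Adamts14 gained it (0.34), and 7010 genes passed in all against 7151. With the muscle score Pcolce lost it (-0.19). Without the 6 libraries highest in muscle 5 genes passed, 4 of them lower, beside 38.7% of all, and Lox (-0.29), Loxl3 (-0.24) and Pcolce (-0.15) lost the call. Without the 4 libraries high in Scx, Loxl3 (-0.35) and Pcolce (-0.26) lost it. The cause of these changes was not tested; fewer libraries were fitted in the last 2 of them.

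Leaving out each library in turn gave 6 to 9 genes past the threshold, 1 to 2 higher and 5 to 8 lower, beside 45.8% to 48.1% of all tested genes. Log2 fold changes then lay between -0.37 and -0.22 for Loxl2, -0.41 and -0.28 for Loxl3, -0.36 and -0.24 for Pcolce and 0.24 and 0.40 for Adamts14. Ratios to type I collagen kept their direction with types III and V added to the denominator and with each library left out. Groups without overlap numbered 2 genes with all libraries and 3 without wild type library 3 (20.9% of all tested genes).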
